A study of Mus musculus with 16 samples.

Results

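Chemokines are small secreted proteins that direct the movement of leukocytes, and their receptors are G protein-coupled receptors on the surface of the responding cells. The members described here are the 54 mouse genes on the array whose symbols name a CC or CXC chemokine, a CC or CXC chemokine receptor, Cx3cl1, Xcl1 or Xcr1, out of 19505 genes measured. They were chosen by symbol and not by any measured value, and a pair of receptor genes is outside the rule. The 54 members comprise 38 ligands and 16 receptors.

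Inflammatory ligands such as Ccl3 and Cxcl2 are made on demand by activated myeloid cells and recruit monocytes and neutrophils. Homeostatic ligands such as Cxcl12 and Ccl21a are made by stromal cells and set where leukocytes reside, and Cx3cl1 is held on the membrane of neurons and other cells as an adhesive ligand. In the olfactory mucosa, macrophages and other leukocytes lie among and beneath the sensory neurons, where they take part in the clearing and replacement of those neurons.

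The samples were sorted cells of the olfactory mucosa of 24 S100a5-tauGFP mice of both sexes, aged 7 to 12 weeks. S100a5 is transcribed by olfactory sensory neurons according to their activity, and the reporter couples a tau-GFP fusion to it, so the gate separated cells by reporter fluorescence alone and carried no marker of any other cell type. All mice carried the reporter and stayed one by one in chambers for 40 h under an air flow of 3.1 L/min. From 26 h, 12 of them received octanoic acid, a fatty acid odorant, and 12 received filtered air as the vehicle (clean air below), each in pulses of 10 s every 20 min. Tissue of 3 mice was pooled, which gave 4 pools per treatment, and FACS split every pool into a GFP+ and a GFP- sample. The 4 groups are therefore clean air GFP+, clean air GFP-, octanoic acid GFP+ and octanoic acid GFP-, with 4 Clariom S arrays each.

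Signals are log2 values, and the small number of arrays limits the precision of group means and differences. Background here means the median signal of negative-control probe sets, 6.20 log2, and 95% of those controls lay under 10.4 log2. All 12 measured markers of mature olfactory neurons lay above the background in the 4 groups, and the neuronal marker Omp stood at 18.8 log2 in GFP+ and 18.7 log2 in GFP- cells of clean-air mice, so both gates held neuronal RNA. S100a5 signal of GFP+ cells exceeded that of GFP- cells by 1.32 ± 0.22 log2 (SD, n = 4) in clean-air mice and by 1.53 ± 0.52 in octanoic acid mice, a difference the gate itself sets. The octanoic acid GFP+ array of pool 3 stood apart from its group (mean correlation 0.976, against 0.986 to 0.991 for the other arrays), and the clean-air GFP- array of pool 4 had the highest background, 6.77 log2. Without these 2 pools 11 members were lower in GFP+ cells under clean air and 10 under octanoic acid, and 0 were higher in either treatment, against 1 in each with them. The 11 were the same genes, whereas 9 of the 10 were, with Ccl22 lost (-0.67 log2, limma adjusted p = 0.127) and Cxcr5 gained (-1.08, limma adjusted p = 0.0150).

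Each difference below is log2 GFP+ minus log2 GFP- of the same pool, so a negative value is a lower signal in GFP+ cells. The comparison asks which transcripts distinguish cells with reporter fluorescence from the remainder of the mucosa. With clean air 11 of the 54 members were lower in GFP+ cells (20.4%, where 9.58% of all genes were lower) and 1 was higher (1.85%, where 5.83% of all genes were higher), by limma with a Benjamini-Hochberg adjusted p under 0.05 over all genes. With octanoic acid 10 were lower (18.5%, where 10.9% of all genes were) and 1 was higher (1.85%, where 6.26% of all genes were). The same shares of all genes stand beside the counts by role, chromosome and list below. Ccr2, Cxcr4, Ccr1, Ccl9, Ccl6, Ccl3, Cxcl2 and Ccl5 were lower in both treatments, and 6 of these 8, all but Ccr1 and Ccl5, were more than 4-fold lower in each treatment, also where that fold is the lower bound explained below. The median difference over the members was -0.04 log2 under clean air and 0.02 under octanoic acid, against 0.11 over all genes in each. The scale between arrays sets how many members pass as higher: with each array centred on its median, 11 members were lower and 4 higher with clean air and 9 lower and 15 higher with octanoic acid, and with quantile normalization 10 lower and 2 higher and 11 lower and 4 higher. Since these are bulk samples, fewer cells of a type and less RNA per cell cannot be told apart.

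Much of the family was dim. In 30 of the 54 members the mean signal lay under the background in all 4 groups, and 24 members (44.4%) exceeded it in at least 1 group, against 64.0% of all genes. Only Ccr2, Cxcr4, Ccl9, Ccl3 and Ccl27a exceeded that 10.4 log2 in any group mean. A group whose mean did not exceed the background of its own arrays by at least its SD is called at the background. A fold against such a group is a lower bound, and with both groups at the background no fold is given.

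**Figure D1:**
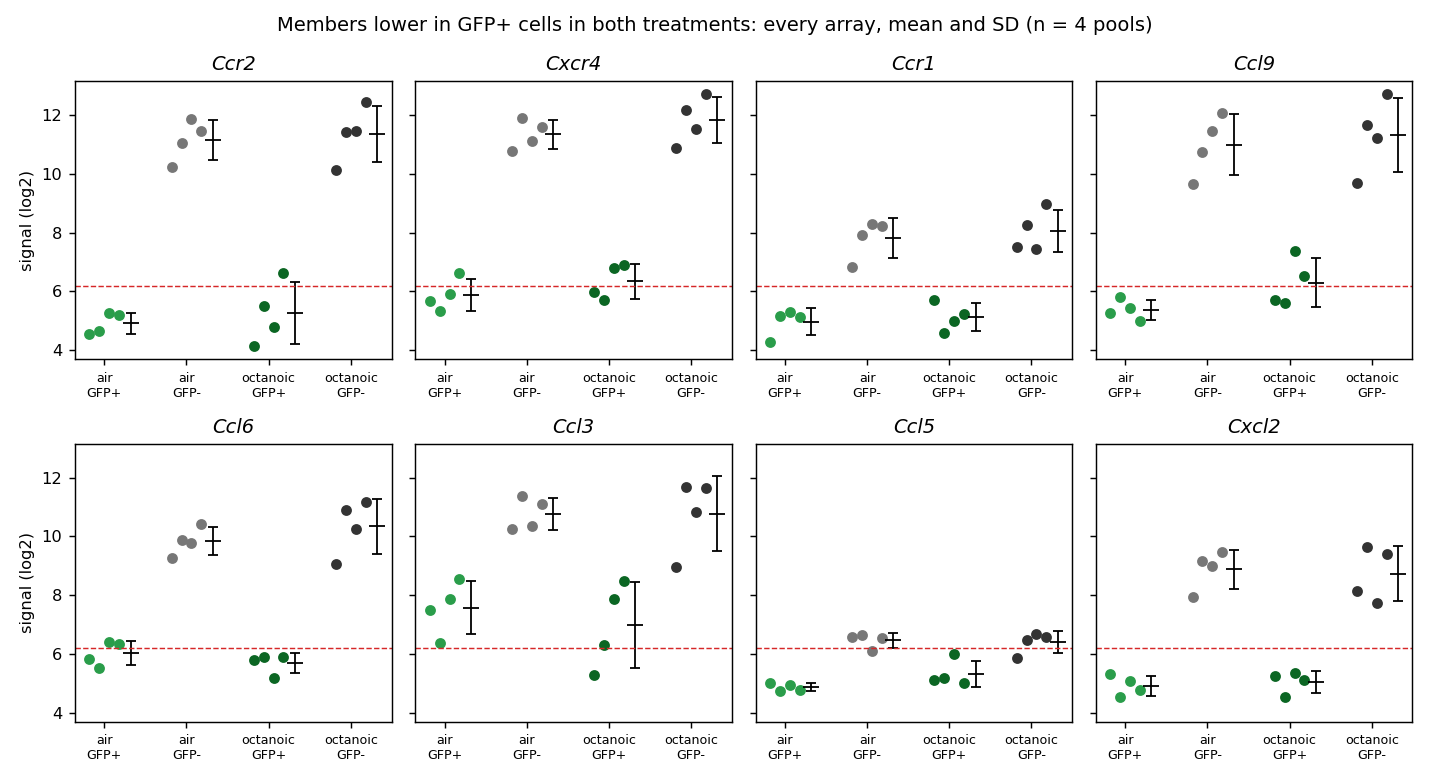
Signal (log2, y axis) of the 8 members lower in GFP+ cells in both treatments, for the 4 groups of 4 arrays on the x axis. Points are arrays, bars are the mean and SD, and the dashed line is the background of 6.20 log2; for Ccr2 every GFP- array lies above 10 log2 and every GFP+ array below 7.

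Among the 10 CC receptors, 2 were lower in GFP+ cells under clean air and 3 under octanoic acid. Ccr2, the receptor for Ccl2, Ccl7 and Ccl12 that classical monocytes use to leave the bone marrow, showed the largest difference of any member. In clean-air mice its signal was 4.55, 4.64, 5.27 and 5.20 log2 in the GFP+ arrays of pools 1 to 4, and 10.24, 11.05, 11.85 and 11.45 in the GFP- arrays. With octanoic acid it was 4.13, 5.52, 4.81 and 6.62 in GFP+ arrays, against 10.13, 11.42, 11.44 and 12.43 in GFP- arrays. The groups did not overlap, and only the octanoic acid GFP+ array of pool 4 rose above the background. The difference was -6.23 ± 0.39 log2 with clean air (SD, n = 4, limma adjusted p = 6.59e-09) and -6.09 ± 0.37 with octanoic acid (limma adjusted p = 8.95e-09), or at least 27.9-fold and 30.0-fold lower.

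Ccr1 is a receptor of monocytes and neutrophils for Ccl3, Ccl5 and Ccl9. Its signal was 4.28, 5.16, 5.31 and 5.12 log2 in GFP+ arrays and 6.83, 7.91, 8.29 and 8.23 in GFP- arrays with clean air. Octanoic acid pools gave 5.70, 4.60, 5.0 and 5.23 in GFP+ arrays, against 7.49, 8.27, 7.45 and 8.96 in GFP- arrays. Every GFP+ array lay under the background and every GFP- array above it. The difference was -2.85 ± 0.25 with clean air (SD, n = 4, limma adjusted p = 2.30e-05) and -2.91 ± 0.95 with octanoic acid (limma adjusted p = 1.71e-05), at least 2.78-fold and 3.20-fold lower. Ccr3, the eosinophil receptor for eotaxins, was lower with octanoic acid at -1.88 ± 0.84 log2 (SD, n = 4, limma adjusted p = 0.00153) and stood at -0.99 ± 0.79 with clean air (limma adjusted p = 0.0646), with both sorted groups at the background in each treatment. The octanoic acid call of Ccr3 was lost when values were raised to the background of each array (-0.11, limma adjusted p = 0.638) or to 1 common background (-0.34, limma adjusted p = 0.303).

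The other 7 CC receptors passed in neither treatment. Ccr7, which guides dendritic cells and naive T cells to lymph nodes, was above the background in every group yet differed by -0.04 ± 0.30 log2 under clean air and 0.13 ± 0.76 under octanoic acid (SD, n = 4 each). Ccr9, the gut-homing receptor, stood at -0.91 ± 0.81 and -1.01 ± 1.07 with all group means under the background (limma adjusted p = 0.133 and 0.0871), and it was lower in GFP+ cells in all 8 pools. Ccr4, Ccr6, Ccr8, Ccr10 and Ccr1l1 lay between -0.11 and 0.60 log2, all with group means under the background.

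Of the 6 CXC and XC receptors, Cxcr4 was lower in both treatments. Cxcr4 is the receptor for Cxcl12 and is carried by most leukocytes and their precursors. Its GFP+ signal was 5.69, 5.32, 5.91 and 6.61 log2 with clean air and its GFP- signal 10.77, 11.88, 11.11 and 11.59. With octanoic acid the values were 5.99, 5.69, 6.79 and 6.91 in GFP+ arrays, against 10.89, 12.17, 11.51 and 12.72 in GFP- arrays. All 8 GFP- arrays lay above all 8 GFP+ arrays. The difference was -5.45 ± 0.74 log2 with clean air (SD, n = 4, limma adjusted p = 2.84e-07) and -5.48 ± 0.82 with octanoic acid (limma adjusted p = 2.53e-07), at least 30.9-fold and 39.0-fold lower.

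Xcr1, a receptor of cross-presenting dendritic cells, was the 1 member higher in GFP+ cells with octanoic acid. Its octanoic acid signal was 5.01, 5.44, 5.71 and 5.54 log2 in GFP+ arrays, against 4.82, 4.70, 4.64 and 4.85 in GFP- arrays, a difference of 0.68 ± 0.37 (SD, n = 4, limma adjusted p = 0.0147). With clean air it was 5.32, 5.44, 5.57 and 5.74 in GFP+ arrays, against 4.62, 5.11, 5.01 and 5.33 in GFP- arrays, a difference of 0.50 ± 0.16 (limma adjusted p = 0.0656). All 4 group means lay under the background, so no fold is given, and the octanoic acid call was lost without pool 3 (0.54, limma adjusted p = 0.0680) or pool 4 (0.67, limma adjusted p = 0.0569), with centring on olfactory receptors (0.75, limma adjusted p = 0.0697) and with the octanoic acid pools fitted alone (limma adjusted p = 0.0622). Cxcr1, Cxcr3, Cxcr5 and Cxcr6, known from neutrophils, activated T cells, B cells and tissue lymphocytes, passed in neither treatment, with differences from -0.74 (Cxcr5 with octanoic acid) to -0.003 (Cxcr1 with octanoic acid). Of these only Cxcr3 had group means above the background.

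The ligands that attract monocytes and granulocytes through CC receptors held most of the other lower members. 5 of 12 were lower with clean air and 4 of 12 with octanoic acid, and none was higher. Ccl9 and Ccl6 are neighbouring genes for related ligands made by macrophages and other myeloid cells. Their promoter windows, from 250 bases before to 50 bases after the start site, are shown because these neighbours, with related products, were both lower in each treatment. Sequences are RefSeq's for GRCm38.p6, Ccl9 at chr11:83578587-83578886 and Ccl6 at chr11:83593038-83593337, both on the minus strand and printed 5′ to 3′. Capitals mark runs of at least 9 bases that both windows share in the same order.

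Ccl9: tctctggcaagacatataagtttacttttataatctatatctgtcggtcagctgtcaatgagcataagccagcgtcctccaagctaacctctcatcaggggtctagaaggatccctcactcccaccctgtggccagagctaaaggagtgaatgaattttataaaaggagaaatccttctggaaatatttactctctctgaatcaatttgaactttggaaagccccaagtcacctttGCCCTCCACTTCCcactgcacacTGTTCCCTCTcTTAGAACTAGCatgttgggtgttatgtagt

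Ccl6: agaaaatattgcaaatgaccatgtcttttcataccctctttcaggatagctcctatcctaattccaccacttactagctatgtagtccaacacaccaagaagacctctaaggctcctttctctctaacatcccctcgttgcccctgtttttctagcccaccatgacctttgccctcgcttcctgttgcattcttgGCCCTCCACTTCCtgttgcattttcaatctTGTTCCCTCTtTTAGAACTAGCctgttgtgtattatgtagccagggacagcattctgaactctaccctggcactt

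The shared runs are 13, 10 and 11 bases long, 34 bases in all. Counted from the start site, the first of them begins at base -14 in Ccl9 and at -55 in Ccl6, so the matching stretch lies at a different distance from the 2 annotated starts.

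In clean-air mice Ccl9 signal was 5.27, 5.80, 5.44 and 5.01 log2 in the GFP+ arrays and 9.65, 10.75, 11.46 and 12.05 in the GFP- arrays. After octanoic acid it was 5.71, 5.59, 7.38 and 6.52 in GFP+ arrays, against 9.69, 11.66, 11.22 and 12.71 in GFP- arrays. The groups were far apart in both treatments, while the GFP- arrays themselves spread widely. The difference was -5.60 ± 1.18 log2 with clean air (SD, n = 4, limma adjusted p = 5.34e-06) and -5.02 ± 1.28 with octanoic acid (limma adjusted p = 1.21e-05), at least 24.8-fold and 26.6-fold lower.

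Ccl6 was also lower in both treatments. Its clean-air signal was 5.85, 5.53, 6.41 and 6.34 log2 in GFP+ arrays, against 9.26, 9.89, 9.76 and 10.43 in GFP- arrays. Under octanoic acid the values were 5.80, 5.89, 5.20 and 5.90 in GFP+ arrays, against 9.08, 10.89, 10.24 and 11.17 in GFP- arrays. No GFP- array came near the GFP+ range. The difference was -3.81 ± 0.50 log2 with clean air (SD, n = 4, limma adjusted p = 3.27e-06) and -4.65 ± 0.92 with octanoic acid (limma adjusted p = 6.14e-07), at least 11.1-fold and 15.8-fold lower.

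Ccl3, or macrophage inflammatory protein 1-alpha, is released by activated macrophages, neutrophils and lymphocytes. Its clean-air signal was 7.48, 6.38, 7.89 and 8.56 log2 in GFP+ arrays, against 10.26, 11.36, 10.35 and 11.09 in GFP- arrays. With octanoic acid it was 5.28, 6.30, 7.89 and 8.50 in GFP+ arrays, against 8.98, 11.66, 10.83 and 11.64 in GFP- arrays. In clean-air GFP+ cells Ccl3 signal was above the background in every array, but under the 10.4 log2 that bounds 95% of negative controls. The octanoic acid GFP+ arrays ranged from under the background in pool 1 to well above it in pools 3 and 4. The difference was -3.19 ± 1.20 log2 with clean air, or 9.09-fold lower (SD, n = 4, limma adjusted p = 0.000299), and -3.79 ± 1.10 with octanoic acid, at least 11.7-fold lower (limma adjusted p = 6.80e-05).

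Ccl5, known as RANTES and made by T cells and NK cells, was lower by less. Its clean-air signal was 5.03, 4.73, 4.97 and 4.79 log2 in GFP+ arrays, against 6.57, 6.65, 6.11 and 6.53 in GFP- arrays. The octanoic acid values were 5.12, 5.18, 6.0 and 5.0 in GFP+ arrays, against 5.86, 6.49, 6.68 and 6.59 in GFP- arrays. The clean-air groups did not overlap, whereas under octanoic acid the GFP+ array of pool 3 lay above the GFP- array of pool 1. The difference was -1.59 ± 0.34 with clean air (SD, n = 4, limma adjusted p = 0.000107) and -1.08 ± 0.44 with octanoic acid (limma adjusted p = 0.00190), at least 1.09-fold and 1.03-fold lower, and neither call held when values under the background were raised to it. Ccl12, a monocyte ligand of Ccr2, was lower with clean air at -1.24 ± 1.20 log2 (SD, n = 4, limma adjusted p = 0.0328) with both groups at the background, and stood at -0.27 ± 0.40 with octanoic acid (limma adjusted p = 0.636). Its clean-air call was lost without pool 1 (-1.05, limma adjusted p = 0.141) or pool 2 (-0.77, limma adjusted p = 0.158), with the clean-air pools fitted alone (limma adjusted p = 0.0660) and with values raised to each array's own or to a common background (0.12 and -0.02, limma adjusted p = 0.633 and 0.550).

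Ccl2, the main ligand of Ccr2, did not pass in either treatment. Its clean-air signal was 5.81, 5.97, 5.97 and 5.61 log2 in GFP+ arrays, against 6.36, 6.70, 5.69 and 6.38 in GFP- arrays, and with octanoic acid 5.24, 5.35, 6.83 and 6.08 in GFP+ arrays, against 6.17, 6.69, 6.74 and 5.84 in GFP- arrays. The groups overlapped, at -0.44 ± 0.49 log2 under clean air and -0.49 ± 0.77 under octanoic acid (SD, n = 4, limma adjusted p = 0.325 and 0.249). Ccl4, which in the RefSeq annotation overlaps Ccl3, stood at -0.46 ± 0.38 and 0.09 ± 1.07 log2 (limma adjusted p = 0.396 and 0.877). Ccl7, Ccl8, Ccl11, Ccl24 and Ccl26, ligands for monocytes and eosinophils, lay between -0.22 and 0.41 log2 in both treatments and passed in neither.

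**Figure D2:**
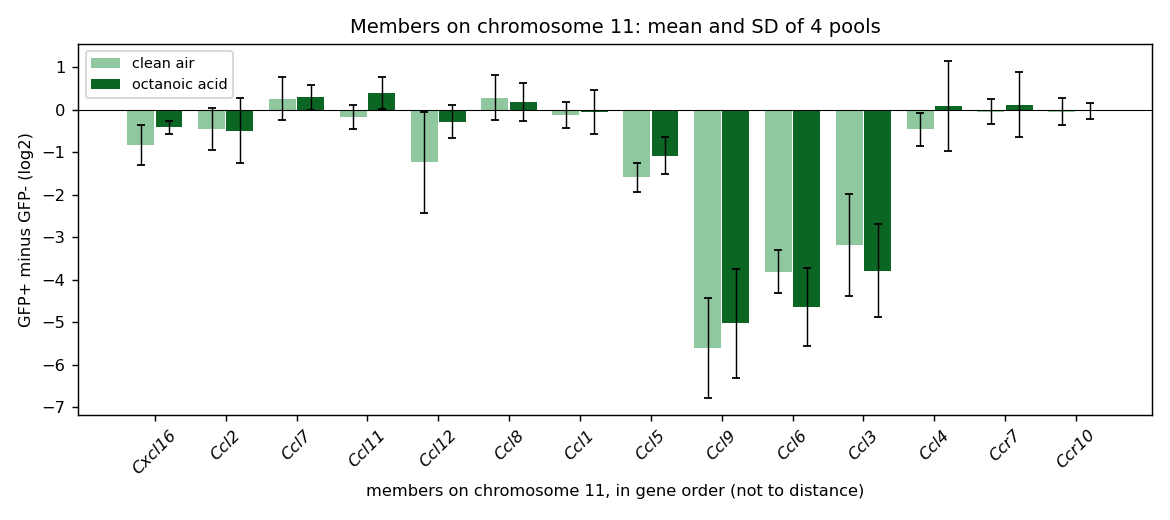
Difference GFP+ minus GFP- (log2, y axis) of the 14 members on chromosome 11 in gene order, under clean air and under octanoic acid; bars are means and error bars SDs of 4 pools. Ccl9, Ccl6 and Ccl3 lie next to each other at -3.19 log2 or lower in each treatment, while Ccl4 beside them stood at -0.46 and 0.09.

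Neighbouring members did not all move together. Of 14 members on chromosome 11, 6 were lower under clean air and 4 under octanoic acid. Over all genes the lower share was 9.58% under clean air and 10.9% under octanoic acid. In gene order Ccl5, Ccl9, Ccl6 and Ccl3 follow each other, all lower in both treatments, and the next member is Ccl4, which passed in neither. On the same chromosome Ccl2, Ccl7, Ccl11, Ccl8 and Ccl1 passed in neither treatment. Of 10 members on chromosome 9, which include Ccr1, Ccr2 and Ccr3, 2 were lower under clean air and 3 under octanoic acid, and 1 of 11 on chromosome 5 was lower in each, Cxcl2. These counts include Ccl5, Ccl12 and Ccr3, whose calls did not hold when values were raised to the background.

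Among the 5 neutrophil-attracting CXC ligands only Cxcl2 passed. Cxcl2, macrophage inflammatory protein 2, is made by activated macrophages and neutrophils and is a known target of the transcription factor NF-kB. Its promoter window lies at chr5:90903649-90903948 on the plus strand of GRCm38.p6 (RefSeq), and capitals mark 11 bases that hold 2 overlapping matches to the NF-kB consensus, starting at bases -97 and -96.

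Cxcl2: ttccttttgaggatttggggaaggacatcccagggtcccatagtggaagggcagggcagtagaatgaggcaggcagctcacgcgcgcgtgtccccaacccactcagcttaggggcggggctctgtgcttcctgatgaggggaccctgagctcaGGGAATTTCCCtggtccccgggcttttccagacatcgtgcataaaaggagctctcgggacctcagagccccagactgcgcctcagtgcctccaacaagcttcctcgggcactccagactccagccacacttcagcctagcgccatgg

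Cxcl2 signal with clean air was 5.32, 4.53, 5.07 and 4.77 log2 in GFP+ arrays, against 7.94, 9.15, 8.99 and 9.46 in GFP- arrays. Octanoic acid pools gave 5.25, 4.53, 5.37 and 5.12 in GFP+ arrays, against 8.13, 9.64, 7.75 and 9.39 in GFP- arrays. All GFP+ arrays were under the background and all GFP- arrays above it. The difference was -3.96 ± 0.96 log2 with clean air (SD, n = 4, limma adjusted p = 4.30e-05) and -3.66 ± 1.26 with octanoic acid (limma adjusted p = 7.12e-05), at least 5.82-fold and 5.15-fold lower. Cxcl1, Cxcl3, Cxcl5 and Cxcl15, related ligands, lay between -0.29 and 0.43 log2 in both treatments, and among them only Cxcl3 had group means above the background.

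The same 10-base NF-kB matches stand in the windows of Cxcl1 and Cxcl3, which did not differ past the threshold. Of the 54 members 39 had a promoter window in the RefSeq table, and both strands were searched. A gene with several windows was counted as a match if any of them held the motif. The NF-kB consensus was in 9 of these 39 members (23.1%) and in 5.51% of 15691 genes with a window. It was in 2 of 7 members lower in both treatments (Cxcl2 and Ccl9) and in 6 of 26 called in neither. The PU.1 core GAGGAA, a motif of a myeloid transcription factor, was in 13 of 39 (33.3%), in 3 of the 7 and 6 of the 26, against 30.3% of all genes. The AP-1 motif TGANTCA was in 8 of 39 (20.5%; 1 of the 7 and 6 of the 26) against 8.35%, and the C/EBP motif TTGCNNAA in 3 of 39 (7.69%; 0 of the 7 and 3 of the 26) against 11.6%. A match describes the letters of the window and is no evidence of binding.

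The 6 constitutive CXC and CX3C ligands held 1 higher and 1 lower member with clean air and none past the threshold with octanoic acid. Cx3cl1, fractalkine, is a membrane-bound ligand of neurons and epithelial cells. Its clean-air signal was 7.95, 7.37, 7.71 and 7.65 log2 in GFP+ arrays, against 7.12, 7.43, 7.05 and 6.20 in GFP- arrays, and with octanoic acid 7.45, 7.78, 7.36 and 7.82 in GFP+ arrays, against 7.19, 7.00, 6.84 and 7.13 in GFP- arrays. GFP+ was the higher sample in 3 of 4 clean-air pools and in 4 of 4 octanoic acid pools, where the groups did not overlap. The difference was 0.72 ± 0.62 log2 or 1.65-fold with clean air (SD, n = 4, limma adjusted p = 0.0422) and 0.56 ± 0.23 with octanoic acid (limma adjusted p = 0.102). The clean-air value was 0.68 without clean-air pool 1, 0.74 without pool 3 and 0.475 without pool 4, with limma adjusted p of 0.135, 0.103 and 0.220, so the call needed each of these pools. It was also lost without octanoic acid pool 1, 3 or 4, whose spread enters the fit (limma adjusted p = 0.0527, 0.0512 and 0.0543), with centring on olfactory receptors (0.55, limma adjusted p = 0.187), with values raised to a common background (0.72, limma adjusted p = 0.120) and with the clean-air pools fitted alone (limma adjusted p = 0.0724).

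Cxcl16, a transmembrane ligand that also acts as a scavenger receptor on macrophages, was lower with clean air at -0.83 ± 0.47 log2, or 1.77-fold (SD, n = 4, limma adjusted p = 0.00785), and stood at -0.41 ± 0.15 with octanoic acid (limma adjusted p = 0.148). That call was lost without clean-air pool 2 (-0.68, limma adjusted p = 0.0558) and with quantile normalization (-0.55, limma adjusted p = 0.0514). Cxcl12, the stromal ligand of Cxcr4, was 5.68, 5.16, 5.71 and 5.43 log2 in clean-air GFP+ cells and 5.26, 5.65, 5.27 and 5.08 in GFP- cells. With octanoic acid Cxcl12 was 5.60, 5.41, 5.48 and 5.44 in GFP+ arrays, against 5.58, 5.36, 5.18 and 5.37 in GFP- arrays. All 4 Cxcl12 group means lay under the background, and the difference was 0.18 ± 0.45 and 0.11 ± 0.13 log2 (SD, n = 4).

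Cxcl14, an epithelial ligand, was 4.54, 4.64, 4.59 and 4.44 log2 in clean-air GFP+ cells and 4.62, 4.73, 4.27 and 4.24 in GFP- cells. Under octanoic acid the values were 4.45, 4.60, 4.91 and 4.76 in GFP+ arrays, against 4.96, 5.29, 4.79 and 4.53 in GFP- arrays. The groups overlapped under the background, at 0.09 ± 0.20 and -0.21 ± 0.45 log2 (SD, n = 4). Cxcl13, the B-cell ligand of Cxcr5, and Cxcl17 passed in neither treatment, and so did the 3 interferon-induced T-cell ligands Cxcl9, Cxcl10 and Cxcl11, which lay under the background in all 4 groups at -0.44 to 0.24 log2.

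Of the 12 ligands for lymphocytes and dendritic cells, 1 was lower in each treatment, where 9.58% (clean air) and 10.9% (octanoic acid) of all genes were. Ccl17, a dendritic-cell ligand of Ccr4, was lower with clean air at -1.0 ± 0.60 log2, at least 1.61-fold (SD, n = 4, limma adjusted p = 0.00602), and stood at -0.25 ± 0.22 with octanoic acid (limma adjusted p = 0.460). Ccl22, the other ligand of Ccr4, was lower with octanoic acid at -0.64 ± 0.28, at least 1.20-fold (SD, n = 4, limma adjusted p = 0.0483), and stood at -0.46 ± 0.53 with clean air (limma adjusted p = 0.164). The octanoic acid call of Ccl22 was lost without any 1 of the 4 octanoic acid pools (-0.72 to -0.51, limma adjusted p = 0.0627 to 0.212) and without clean-air pool 3 or 4 (limma adjusted p = 0.0656 and 0.0661). It was lost in 14 of 19 alternatives in all, among them array median centring (-0.34, limma adjusted p = 0.165), quantile normalization (-0.475, limma adjusted p = 0.120), centring on olfactory receptors (-0.57, limma adjusted p = 0.172) and both ways of raising values to the background (-0.26 and -0.41, limma adjusted p = 0.240 and 0.223). Without the replicate block, that is without pairing the 2 samples of a pool, its limma adjusted p was 0.0788, and with the octanoic acid pools fitted alone it was 0.0582.

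The other 10 of these ligands passed in neither treatment. Ccl27a, a skin-homing ligand, had mean signals of 12.37 and 12.31 log2 in GFP+ and GFP- cells with clean air and of 12.36 and 11.96 with octanoic acid. Its difference was 0.07 ± 0.29 and 0.40 ± 0.06 log2 (SD, n = 4, limma adjusted p = 0.820 and 0.0985). The groups did not overlap with octanoic acid, and the RefSeq annotation has Ccl27a overlapping the receptor gene Il11ra1, which is not analysed here, so whether the probes tell them apart was not tested. Ccl25, the thymic and gut ligand of Ccr9, stood at 0.13 ± 0.24 and 0.28 ± 0.22, Ccl21a, a lymphatic ligand of Ccr7, at 0.16 ± 0.37 and 0.14 ± 0.59, and Ccl20, the epithelial ligand of Ccr6, at 0.32 ± 0.55 and 0.43 ± 0.55 log2 (SD, n = 4). Ccl21b and Ccl21c held identical values on all 16 arrays, 0.10 and 0.05 log2 apart between gates, so these values cannot tell the 2 near-identical genes apart. The same signal therefore counts for 2 of the 54 members. Another probe set of Ccl21b was set aside because only the brightest of a gene was kept.

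**Figure D3:**
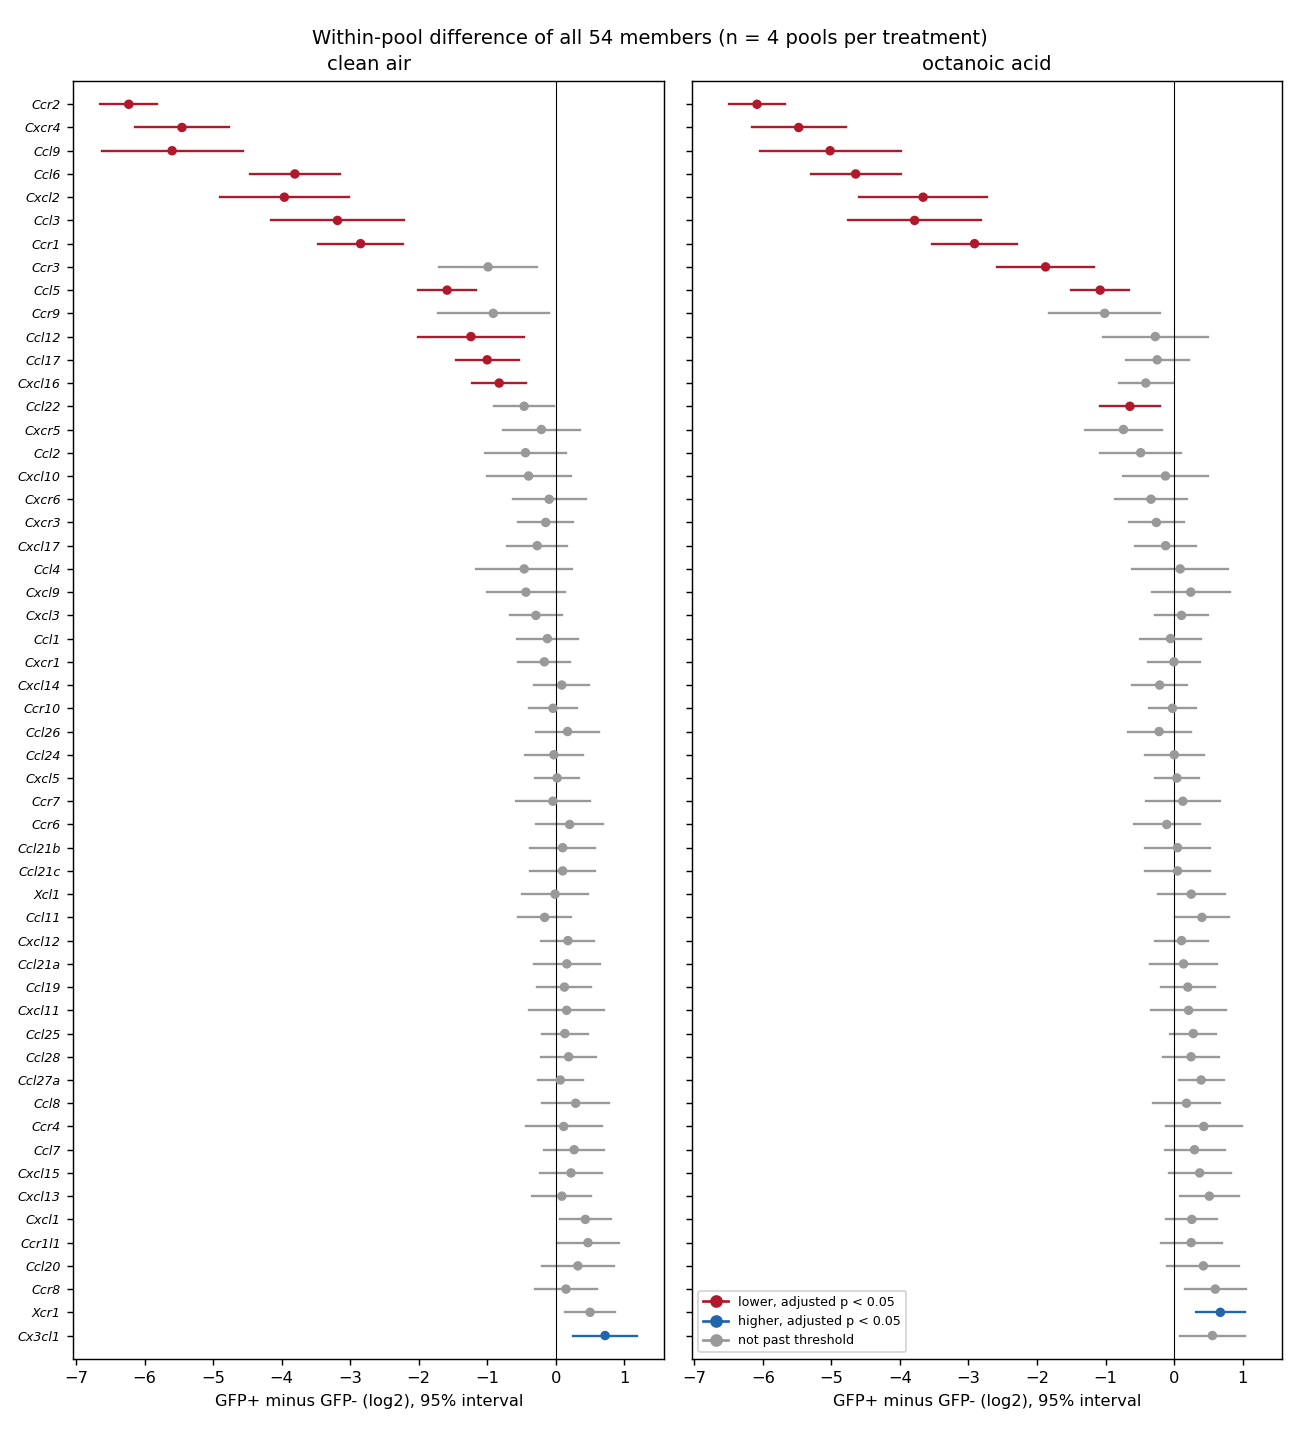
Difference GFP+ minus GFP- (log2, x axis) of each of the 54 members (rows), with clean air on the left and octanoic acid on the right; points are means of 4 pools and lines are limma's 95% intervals. 11 and 10 members lie to the left of 0 past the threshold (red), 1 in each panel lies to the right (blue), and the others are grey.

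In all, 39 members passed in neither treatment, and 28 of them lay under the background in all 4 groups. Their differences ran from -0.91 (Ccr9) to 0.47 (Ccr1l1) with clean air and from -1.01 (Ccr9) to 0.60 (Ccr8) with octanoic acid, with medians of 0.09 and 0.11 log2, close to those over all genes. Over both treatments 11 members were lower in GFP+ cells in all 8 pools (20.4%, against 11.2% of all genes), and 2 were higher in all 8 (3.70%, against 8.79% of all genes). The GFP+ and GFP- arrays did not overlap, on the lower side, for 11 members under clean air and 9 under octanoic acid, where 10.7% of all genes did so in each treatment. On the higher side they did not overlap for 1 member with clean air (9.82% of all genes) and 3 with octanoic acid (7.25% of all genes).

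Leukocyte markers moved with these members. All 8 measured genes of a general leukocyte list, all 10 neutrophil genes and all 7 monocyte genes were lower in GFP+ cells in both treatments. So were 5 and 4 of 7 macrophage genes, 5 of 6 B-cell genes and 8 and 7 of 9 T- and NK-cell genes. Of the dendritic-cell genes 5 and 4 of 9 were lower, and of the mast-cell and basophil genes 3 of 7. Ptprc, which encodes the pan-leukocyte antigen CD45, was lower at -5.05 ± 0.61 log2 under clean air and -4.88 ± 0.81 under octanoic acid (SD, n = 4). The summed signal of the leukocyte list was 9.67 to 11.06 log2 in GFP+ and 15.61 to 16.76 in GFP- arrays with clean air. With octanoic acid it was 9.73 to 11.65 and 15.68 to 17.74. In GFP+ cells 3 and 4 of the list's 8 genes had means under the background of 6.20 log2. The brightest gene of this list in GFP- cells was Spi1, at a mean of 15.60 and 16.09 log2, against 12.13 and 12.22 for Ptprc. The summed signal of the neutrophil list was 9.53 to 11.02 and 18.57 to 19.88 log2 with clean air and 9.10 to 12.38 and 19.10 to 20.52 with octanoic acid. In GFP+ cells 5 of that list's 10 genes had means under the background in each treatment. None of the 6 fibroblast genes differed past the threshold in either treatment. Of 7 endothelial genes 0 and 2 were lower, and 6 of the 7 had means under the background in every group. The dendritic-cell list holds the members Xcr1, Ccl17 and Ccl22, so its counts are not separate from theirs. Ccl17 is among the 5 genes lower with clean air, and Ccl22 is among the 4 lower with octanoic acid. Xcr1 is the 1 gene of that list higher with octanoic acid. Other cell types of the mucosa also had lower markers in GFP+ cells. They were 9 and 7 of 9 microvillous and tuft-cell genes, 5 of 8 progenitor and basal-cell genes in each treatment and 5 and 6 of 11 immature-neuron genes. Also lower were 5 and 4 of 11 sustentacular genes, and 3 of 8 Bowman-gland and 2 of 3 erythroid genes in each treatment. Of 7 ensheathing-glia genes only Apoe was lower, at -2.60 ± 1.41 and -2.42 ± 1.64 log2 (SD, n = 4). The others of that list passed in neither treatment, where 9.58% and 10.9% of all genes were lower. Of the 12 mature-neuron genes none was lower and 2 were higher in each treatment, the channel gene Ano2 at 0.50 ± 0.13 and 0.51 ± 0.07 log2 and the phosphodiesterase gene Pde1c at 0.78 ± 0.16 and 0.82 ± 0.11 (SD, n = 4). Both stayed positive under the 3 other scalings, but the clean-air call of Ano2 was lost with quantile normalization (0.43, limma adjusted p = 0.0596), and with centring on olfactory receptors only the octanoic acid call of Pde1c held (0.89, limma adjusted p = 0.00931). The lists are not fully separate, since Kit was counted in both the mast-cell and basophil list and the progenitor and basal-cell list. The lower genes of the latter also included the cell-cycle genes Top2a and Mki67. The part of these cell types in the members' differences was not tested.

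**Figure D4:**
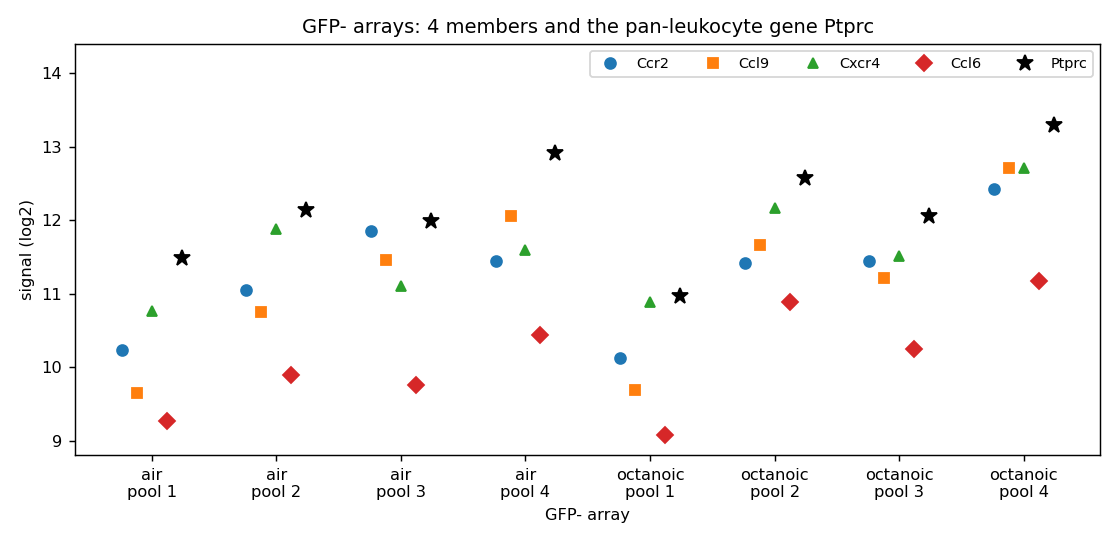
Signal (log2, y axis) of Ccr2, Ccl9, Cxcr4, Ccl6 and the leukocyte gene Ptprc in each of the 8 GFP- arrays (x axis); points are single arrays. All 5 genes are highest in octanoic acid pool 4, at 13.30 log2 for Ptprc, and the clean-air and octanoic acid pools numbered 1 hold their lowest pair of values.

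Within the GFP- arrays the lower members varied from pool to pool. The GFP- array of octanoic acid pool 4 was the highest of 8 for Ccr2 (12.43 log2), Cxcr4 (12.72), Ccl9 (12.71), Ccl6 (11.17) and Ccr1 (8.96). That array was also the highest for Ptprc (13.30) and the summed leukocyte list (17.74). The GFP- arrays of the pools numbered 1 were the lowest pair for Ccr2, Cxcr4, Ccl9 and Ccl6 (9.08 to 10.89 log2) and for Ptprc (11.48 under clean air and 10.97 under octanoic acid). Cxcl2 was lowest in octanoic acid pool 3 (7.75 log2) and highest in octanoic acid pool 2 (9.64), and Ccl5 was highest in octanoic acid pool 3 (6.68), so these did not share that order. The order of the pools was not tested.

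Genes that act with the members were counted in lists chosen by function. Of 20 measured genes that carry the signal of chemokine receptors, 13 were lower in GFP+ cells under clean air and 17 under octanoic acid, none was higher, and the median differences were -1.37 and -1.72 log2. Pik3cg, the PI3-kinase activated by G protein-coupled receptors, was lower at -6.64 ± 0.71 and -7.10 ± 0.91, Rac2, the haematopoietic Rac GTPase, at -5.89 ± 1.09 and -6.31 ± 1.47, and Dock2, its exchange factor, at -4.73 ± 0.20 and -5.39 ± 0.87 (SD, n = 4). Gnai2, an inhibitory G protein subunit, was lower at -4.61 ± 0.53 and -5.37 ± 0.66, while Gnb1, a beta subunit, stood at 0.13 ± 0.06 and 0.04 ± 0.07 and Jak2 at 0.02 ± 0.13 and -0.16 ± 0.17. Of 10 arrestin, receptor kinase and RGS genes, which dampen signalling of G protein-coupled receptors in general, 7 and 6 were lower, with medians of -1.30 and -1.43. Among them were Rgs2 at -5.29 ± 0.54 and -5.46 ± 1.04 and Rgs18 at -3.76 ± 1.04 and -3.64 ± 1.39.

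Adhesion genes of leukocyte entry were lower in 8 of 12 cases with clean air and 9 of 12 with octanoic acid, with medians of -1.78 and -2.12 log2. The integrin subunit Itgam was lower at -6.40 ± 1.0 and -7.26 ± 0.93, its partner Itgb2 at -5.35 ± 0.40 and -6.10 ± 1.32, and the hyaluronan receptor Cd44 at -5.45 ± 0.79 and -5.66 ± 0.58 (SD, n = 4). Of 16 NF-kB and interferon genes, 8 and 7 were lower and 1 was higher in each treatment, with medians of -0.58 and -0.40. The cytokine genes Il1b (-6.55 ± 0.34 and -6.84 ± 1.15) and Tnf (-3.71 ± 0.90 and -3.96 ± 0.71) were lower, and the higher gene was Ifit1, an interferon-induced gene, at 0.84 ± 0.38 and 0.74 ± 0.53. Of the 7 platelet chemokines and atypical receptors, which bind chemokines without G protein signalling, Ackr4 (-1.78 ± 0.32 and -2.01 ± 0.28) and Ccrl2 (-2.82 ± 1.04 and -2.57 ± 0.69) were lower, and Pf4, Ppbp, Ackr1, Ackr2 and Ackr3 passed in neither treatment.

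The comparison of octanoic acid with clean air asks whether exposure to the odorant moved these genes. No member passed in any of the 3 comparisons, that of the within-pool difference, that within GFP+ cells and that within GFP- cells, and 0.0% of all genes passed in each. The smallest limma adjusted p among members was 0.940, 0.955 and 0.985. At an unadjusted limma p under 0.05 there were 2, 3 and 3 members (3.70%, 5.56% and 5.56%), against 4.47%, 3.67% and 3.80% of all genes.

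The members with the smallest p were named for each comparison. For the within-pool difference they were Ccl17 (octanoic acid minus clean air 0.76 log2, 95% interval 0.11 to 1.41), Ccl11 (0.57, 0.02 to 1.12) and Ccl6 (-0.84, -1.77 to 0.09). In GFP+ cells they were Ccl9 (0.92, 0.12 to 1.72), Ccl11 (0.47, 0.02 to 0.91) and Cxcl13 (0.51, 0.02 to 0.99). In GFP- cells they were Ccr6 (0.53, 0.14 to 0.92), Cxcl9 (-0.68, -1.26 to -0.10) and Ccl17 (-0.47, -0.94 to -0.01). Each of these had a limma adjusted p of at least 0.940.

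The intervals set the size of a change that these pools could have missed. For Ccr2 the effect of octanoic acid on the within-pool difference was 0.15 log2 (95% interval -0.44 to 0.73), and for Cxcr4 it was -0.02 (-0.99 to 0.95). It was 0.58 (-0.88 to 2.03) for Ccl9 and -0.60 (-1.97 to 0.76) for Ccl3, intervals that include changes of more than 2-fold. The interval lay within 2-fold in either direction for 36 members for the within-pool difference, 48 in GFP+ cells and 42 in GFP- cells, and many of these lay under the background, where the measured change can understate a true one.

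**Figure D5:**
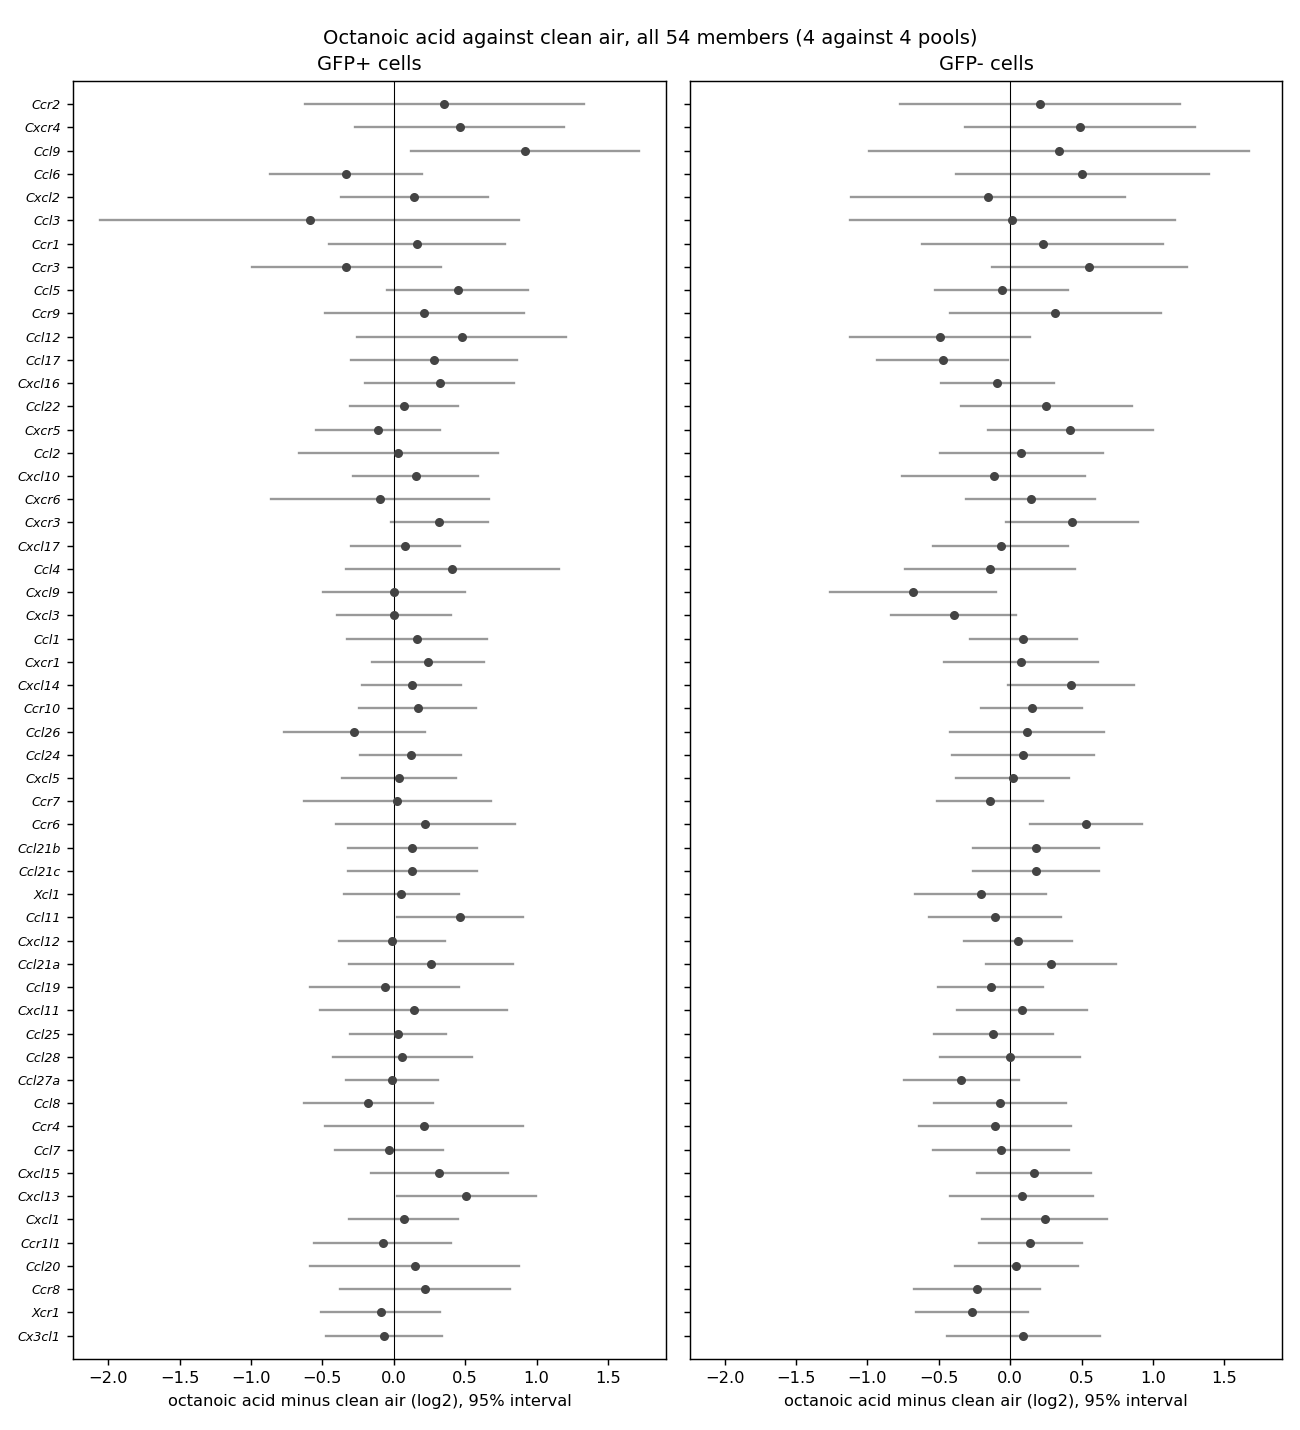
Octanoic acid minus clean air (log2, x axis) for each of the 54 members (rows) in GFP+ cells on the left and GFP- cells on the right; points are differences between means of 4 and 4 pools and lines are limma's 95% intervals. Estimates run from -0.59 (Ccl3) to 0.92 (Ccl9) in GFP+ cells and from -0.68 (Cxcl9) to 0.56 (Ccr3) in GFP- cells, and none passed the threshold.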

How the data were processed

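RNA of 16 sorted samples (50 to 100 ng each) was hybridized to Clariom S arrays. The authors made 1 log2 signal for each probe set on each array with Affymetrix Expression Console, per the submitters' processing notes. Version, summary method and background correction are not given in the sources used here. That the deposited values are log2 was inferred from their range (2.13 to 19.5, array medians 7.00 to 7.39). No step was applied to the values as deposited.

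Of 28846 probe sets, 6640 are controls and 19572 carry 1 gene symbol. 2634 have none and were left out. The brightest of several probe sets of a gene was kept (67 set aside), which gave 19505 genes. The 5222 negative-control probe sets set the background by their median (5.80 to 6.77 on single arrays). For a lower-bound fold, arrays of the dimmer group under their own background were raised to it.

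Both sorted samples of a pool share their 3 mice, so limma 3.58.1 (R 4.3.3, lmFit and eBayes, two-sided) was fitted to the 8 within-pool differences with treatment as the factor, and to the GFP+ and the GFP- arrays separately for octanoic acid against clean air, 4 against 4 pools. Benjamini-Hochberg adjustment ran over all genes, with a threshold of 0.05. The fits were also run on simulated data with independent noise on every array, which cannot test the pairing or deviations that pools share. No label says that pools were processed independently. The p-values rest on the spread between these pools and may be too small if the pools were not independent. Deviations of GFP+ and GFP- samples of a pool correlated at 0.0742 to 0.251 with clean air and at -0.238 to 0.389 with octanoic acid.

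Per-array values are given for members past the threshold in both treatments, members higher in GFP+ cells in either, and Cxcl12, Cxcl14, Cxcr4, Ccl2, Ccr2 and Cx3cl1. Other members past the threshold have their difference, the others a range or count, with the brightest 5 named, and each treatment comparison names the 3 smallest p. Lists name 2 to 4 examples by size, and Gnb1, Jak2 and the platelet and atypical genes past no threshold were added after their values were seen. The members and lists were chosen with earlier results of these data known. Alternatives were other scalings, filters, floors, variance priors, designs and left-out pools. Promoter windows and gene order are RefSeq's for GRCm38.p6, of which no other coordinates are used because the files name no build.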

Additional observations from a re-analysis of the deposited data

Results flagged for a closer look

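The octanoic acid GFP+ array of pool 3 was low for Ccl6, at 5.20 log2, where the other 3 arrays of its group lay at 5.80 to 5.90. Its gap to the nearest array was 0.856 of the range of the group, past Dixon's 95% critical value for 4 samples. All of these values lie under the background of 6.20 log2, and this is the array that correlated least with its group. Groups of 4 arrays were examined for 13 members, 52 groups in all, of which 2.6 would be expected past the critical value by chance and 1 was.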

How the results depend on the processing

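Ccr2, Cxcr4, Ccr1, Ccl9, Ccl6, Ccl3 and Cxcl2 stayed past the threshold and lower in GFP+ cells in both treatments under all 19 alternatives run, and Ccl17 did so with clean air. The count of lower members stayed within 1.5 times, at 9 to 12 with clean air and 7 to 11 with octanoic acid. The count of higher members, 1 in each treatment, depended on the scale and the floor. With clean air it was 4 with array median centring, 2 with quantile normalization, 0 with centring on olfactory receptors and 0 with values raised to one common background. With octanoic acid these 4 settings gave 15, 4, 0 and 0, and it was 29 with values raised to each array's own background, 0 with dim genes left out and 0 with the treatment fitted alone. Without octanoic acid replicate 3 and clean-air replicate 4 together it was 0 in both treatments, and leaving out 1 replicate gave 0 to 1 with clean air and 0 to 3 with octanoic acid. Raising values to each array's own background, which is itself higher on octanoic acid GFP+ arrays, turned several negative octanoic acid differences to 0.46 each. This held for Ccl1, Ccl12, Ccr6, Ccr9, Ccr10, Cxcl10, Cxcl14, Cxcl17, Cxcr1 and Cxcr6, all then called higher (limma adjusted p = 0.0326 to 0.0329). For Ccr9 the difference had been -1.01 and negative in every pool. The clean-air difference of Ccl12 turned to 0.12. For the other changes the cause was not tested. Over all genes 1138 were higher and 1868 lower with clean air and 1221 and 2126 with octanoic acid, against 6082 and 1571 and 7791 and 1715 with median centring, 1813 and 1783 and 2587 and 2026 with quantile normalization, and 8174 and 1993 with octanoic acid when raised to each array's background. The members' median moved from -0.04 to 0.23 and from 0.02 to 0.33 log2 with median centring. The common floor and the joint removal of 2 pools were chosen after seeing the data. Without the replicate block that pairs the 2 samples of a pool the member counts were 11 lower and 1 higher and 10 lower and 1 higher. The genes were the same as with it except that with octanoic acid Ccl22 was lost (limma adjusted p = 0.0788) and Cxcr5 gained (-0.74, limma adjusted p = 0.0482). The labels give octanoic acid and clean-air pools the same numbers, and same-numbered pools deviated together at 0.100 to 0.237 for the differences, 0.100 to 0.371 in GFP+ and -0.0986 to 0.408 in GFP- cells. With the replicate number as a block across treatments 0 members passed and the smallest adjusted p over all genes was 0.781, 0.826 and 0.915. No member passed in a treatment comparison under any alternative run. Signals of the 30 members under the background in all groups bound what can be seen of them.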
